A study of Arabidopsis thaliana with 12 samples.

Results

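The genes described here are 2 families of conjugating enzymes of Arabidopsis thaliana, the UDP-glycosyltransferases (UGTs) and the glutathione S-transferases (GSTs). Members were chosen by a rule on gene symbols, which reads no measured value but was set with earlier results of these data known. It took probe sets assigned to exactly 1 gene whose symbol begins with UGT and a number, or with GST, a class letter (U, F, T, Z or L) and a number. UGT75C1 and UGT79B1 were left out. The choice gave 61 genes, 47 UGTs and 14 GSTs, among 13513 probe sets with exactly 1 gene and 22746 probe sets tested. Each of the 61 genes was read by 1 probe set, and 3 matching probe sets that name several genes were left out. The RefSeq annotation (assembly TAIR10.1, from which loci and positions below are taken) holds 58 loci with a UGT symbol and 48 with a GST symbol, so the members are a part of each family, and the other loci were not analysed here. By the first number of the symbol, the UGTs fall into the groups UGT71 (9 genes), UGT72 (4), UGT73 (7), UGT74 (3), UGT76 (8), UGT78 (3), UGT84 (5) and UGT85 (5), with 1 gene each in UGT80, UGT87 and UGT88. By class letter, 11 GSTs are of the tau class (GSTU), 2 of the phi class (GSTF4 and GSTF13) and 1 of the lambda class (GSTL3).

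A UGT moves a sugar from a UDP-sugar onto a small molecule such as a flavonoid, a hormone, a phenylpropanoid or a glucosinolate precursor, which changes the solubility of that molecule, its activity and its transport into the vacuole. A GST joins the tripeptide glutathione to reactive or foreign compounds, or carries, reduces or isomerises them, and the tau and phi classes are the numerous ones in plants. Members of both families are known from detoxification and stress responses, and many lie in tandem arrays of related genes.

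Transcript levels were measured in whole seedlings 8 days old on ATH1 arrays, 3 arrays for each of 4 groups, and samples of a group are labelled as biological replicates. Wild type (WT) and line 2-8, which carries the estradiol-inducible construct ESTpro:FUS3-strong and ectopically expresses the seed maturation factor FUSCA3 (called FUS3 below), were germinated on 1/2MS medium without sucrose or with 1.5% sucrose. The FUS3 line is 1 line, and its medium held 5 µM estradiol, whereas the labels do not settle whether WT received estradiol, so an effect of FUS3 below is that of line 2-8 under inducing conditions against WT. RNA came from whole seedlings, in which fewer cells of a type and less RNA per cell cannot be told apart.

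All arrays had been scaled to a trimmed mean of 1000.08 to 1000.09, and their median signals lay between 375.2 and 443.4. FUS3 itself was not analysed here. As a check of the labels, the summed signal of 3 seed maturation genes was 88.61 to 166.6 on the 6 WT arrays, 5217 to 5871 in FUS3 without sucrose and 63160 to 66950 in FUS3 with sucrose. Other tissue markers moved with the groups too. A listed gene counts as measured, here and below, if the annotation used gives it a probe set with exactly 1 gene. The other listed genes were not analysed here, which does not mean that the array lacks them. The summed signal of 3 of the 5 listed green tissue genes that were measured was 58820 to 61950 in FUS3 with sucrose and 98280 to 116500 in the other groups. The sum of 2 of 3 root hair genes was 244.7 to 299.0 in WT without sucrose, 571.4 to 630.8 in WT with sucrose, 438.4 to 637.1 in FUS3 without and 927 to 1143 in FUS3 with sucrose. The guard cell gene FMA, 1 of 2 listed, was 80.9 to 156.4 in FUS3 with sucrose and 387.2 to 709.3 elsewhere. None of these markers was at 0. The ratio of 3 prime to 5 prime actin signal, a sign of RNA quality, was 21.26 to 22.21 in FUS3 with sucrose and 12.96 to 19.23 in the other groups. For GAPDH this ratio was 0.79 to 1.19 in FUS3 with sucrose and 0.92 to 1.54 in the other groups. For ubiquitin it was 1.95 to 2.52 and 2.03 to 2.89. Only the actin ratio set FUS3 with sucrose apart. The part of these tissue differences and of RNA quality in the results below was not tested.

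Levels below are linear array signals, and changes are differences of log2(signal + 16) with their standard errors (SE), which understate changes of transcripts with low signal. A gene was called, and is said to have risen or fallen, at an adjusted p under 0.05 in limma with adjustment over all 22746 probe sets. The median SE over all probe sets was 0.15, and 0.22 for an interaction, which is the FUS3 effect with sucrose minus that without and equally the sucrose effect in FUS3 minus that in WT. The 61 genes include 22 UGTs and 4 GSTs with a mean level, averaged on the log2 scale, under 228.6, below which 40% of probe sets lie, and all 61 were kept. No detection call accompanies the signals, so a low value is a low signal and not absence. The 4 group comparisons share arrays with each other in part, so counts in different comparisons are not independent.

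Without sucrose, FUS3 seedlings held more transcript than WT of 8 of the 14 GSTs, all but GSTF13 of the tau class, and less of 1, GSTU18. Of the 47 UGTs 9 rose and 5 fell. Over all probe sets 16.5% were called, 9.50% higher and 7.03% lower, against 64.3% of the GSTs and 29.8% of the UGTs. The median change was 0.39 over the GSTs and 0.12 over the UGTs, beside 0.02 over all probe sets. The arrays of the compared groups did not overlap for 10 GSTs and 21 UGTs, beside 32.5% of all probe sets. With quantile normalization the UGT median was -0.01, and with each array's median subtracted the probe sets called were 1739 higher and 2091 lower in place of 2160 and 1598. These counts leaned on single arrays: without replicate 1 of WT without sucrose 8 UGTs were called instead of 14 (2418 probe sets instead of 3758), and without replicate 2 of FUS3 without sucrose 5 GSTs instead of 9. Whichever array was left out, 8 of the 14 UGT calls and 5 of the 9 GST calls stood, beside 2018 of the 3758 calls over all probe sets. As shares of the genes tested, these were 17.0% of the UGTs and 35.7% of the GSTs, beside 8.87% of all probe sets. The 5 GSTs were GSTU18, GSTU20, GSTU26, GSTU27 and GSTU28, and the 8 UGTs UGT71C1, UGT72E3, UGT74F1, UGT76B1, UGT78D1, UGT78D2, UGT84A3 and UGT85A4.

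With sucrose in the medium the GSTs split: 3 rose in FUS3 against WT (GSTU22, GSTU25 and GSTU26) and 6 fell (GSTF4, GSTL3, GSTU16, GSTU18, GSTU20 and GSTU23). All 9 calls stood whichever array was left out. Among the UGTs 16 rose and 9 fell, and 16 of these 25 calls stood without each array in turn. Over all probe sets 6485 of 8761 calls stood. As shares of the genes tested, the calls that stood covered 34.0% of the UGTs and 64.3% of the GSTs, beside 28.5% of all probe sets. With the 40% of probe sets of lowest mean left out, which left 25 of the 47 UGTs, 7 UGTs rose and 9 fell, so that the excess of rises was not seen there. Over the whole array 38.5% of probe sets were called, 18.9% higher and 19.6% lower, beside 64.3% of the GSTs and 53.2% of the UGTs. The medians were -0.19 for the GSTs, 0.35 for the UGTs and 0.01 for all probe sets. Groups did not overlap for 11 GSTs and 30 UGTs, beside 49.4% of probe sets.

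Sucrose alone, in WT, raised 7 of 14 GSTs and lowered none that passed the limma test, adjusted or not, and each of the 7 calls stood without each array in turn. Among the UGTs 11 rose and 4 fell, of which 10 and 1 stood. The calls that stood covered 7 of the 14 GSTs and 23.4% of the UGTs, beside 17.1% of all probe sets. The background was 26.0% called, 15.9% higher and 10.1% lower. In FUS3 seedlings sucrose raised 3 GSTs and lowered 4, and raised 16 UGTs and lowered 6, beside 39.3% of all probe sets called, 21.8% higher and 17.5% lower. There 6 of the 7 GST calls and 15 of the 22 UGT calls stood, 42.9% and 31.9% of the genes beside 28.9% of all probe sets. The GST median was 0.49 in WT and -0.14 in FUS3, and the UGT median 0.03 in WT and 0.385 in FUS3, with 0.02 and 0.04 over all probe sets. Groups with and without sucrose did not overlap for 7 GSTs and 17 UGTs in WT, beside 39.6% of probe sets, and for 8 and 27 in FUS3, beside 49.2%. The scaling of the arrays bears on these 2 comparisons: with each array's median subtracted the median of all probe sets moved to -0.13 in WT and -0.11 in FUS3, and the UGT median in WT to -0.12. The UGT split was then 9 higher and 6 lower in WT and 8 and 7 in FUS3, and the probe sets called were 2333 higher and 4235 lower in WT in place of 3618 and 2301, and 3257 and 5353 in FUS3 in place of 4967 and 3972. The GST calls in WT were still 7 higher and 0 lower.

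The interaction was called for 8 of 14 GSTs, 7 of them below 0, and for 11 of 47 UGTs, 7 below 0 and 4 above. Over all probe sets 23.1% were called, 9.78% above 0 and 13.3% below, so that the UGT share of 23.4% lay next to the background. The GST share was 57.1%, the GST median interaction -0.60 and the interaction was below 0 in 10 of the 14 genes, whereas the median was 0.17 over the UGTs and -0.01 over all probe sets. Among the 47 UGTs the interaction was above 0 in 27 and below 0 in 20. At an unadjusted p under 0.05 in limma it was above 0 in 12 and below 0 in 9, so the sign split of the UGT calls depended on the cutoff. Of the called interactions 6 GST and 7 UGT ones stood whichever array was left out, which is 42.9% of the GSTs and 14.9% of the UGTs, beside 17.1% of all probe sets.

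**Figure D1:**
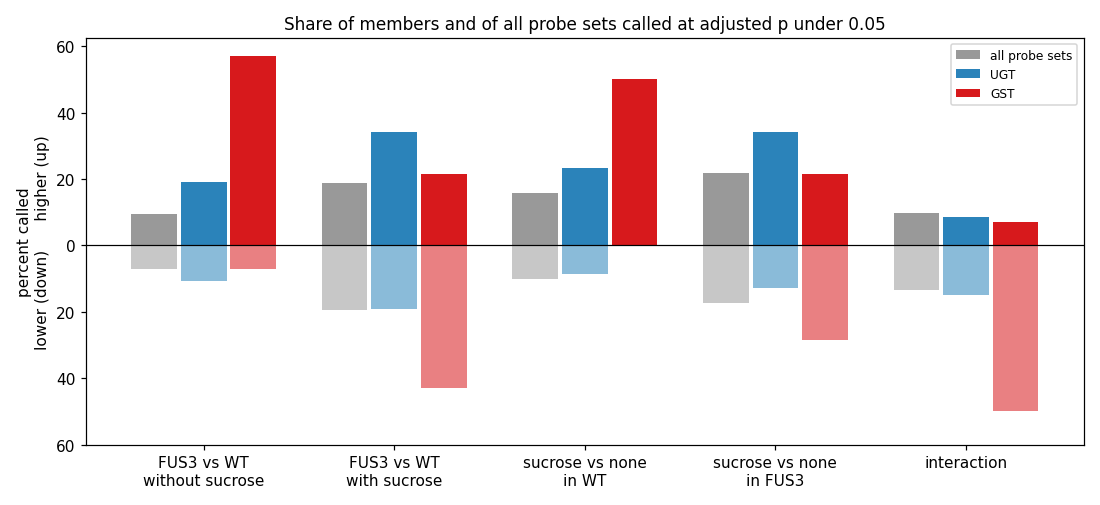
Percent of the 14 GST genes (red), the 47 UGT genes (blue) and all 22746 probe sets (grey) called at adjusted p under 0.05 in each comparison, with higher calls drawn upward in full colour and lower calls downward in pale colour. The GST bars point mostly up for FUS3 without sucrose and for sucrose in WT, where 8 and 7 of 14 rose, and mostly down for the interaction, where 7 of 14 were below 0.

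GSTU20, a tau GST tied to glucosinolate synthesis (chromosome 1, 29484120 to 29485389), lies in a row with GSTU21, GSTU22 and GSTU23 on chromosome 1, between 29467412 and 29485389. Its signals were 5985, 6084 and 6063 on the WT arrays without sucrose, 11011, 13639.5 and 11595 on those with it, 7391, 7689 and 8934 on the FUS3 arrays without sucrose and 6575, 5977 and 6296 on those with it. All 3 arrays of WT with sucrose stood above the other 9, and those of FUS3 with sucrose overlapped the range of WT without sucrose. GSTU20 rose by 0.99 (SE 0.09, adjusted p = 2.34e-06) with sucrose in WT and by 0.40 (SE 0.09, adjusted p = 0.00728) with FUS3 without sucrose. In FUS3 it fell with sucrose, at -0.34 (SE 0.09, adjusted p = 0.00678), and FUS3 with sucrose lay below WT with sucrose at -0.94 (SE 0.09, adjusted p = 1.35e-06). The interaction was -1.34 (SE 0.13, adjusted p = 3.9e-06). GSTU20 was the 1 member of the 61 with calls of opposite sign for sucrose in WT and in FUS3, and GSTU20 and GSTU23 were the 2 with opposite calls for FUS3 without and with sucrose.

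GSTU23, at the other end of that row (chromosome 1, 29467412 to 29468394), had the same order of group means. Its signals were 147, 109 and 133 on the WT arrays without sucrose, 367, 373 and 313 on those with it, 246, 234 and 169.9 on the FUS3 arrays without sucrose and 215, 136 and 171 on those with it. WT with sucrose again stood above the other arrays, and FUS3 with sucrose overlapped both groups without sucrose. Its rise with sucrose in WT was 1.34 (SE 0.19, adjusted p = 0.000144), and FUS3 with sucrose lay at -0.97 (SE 0.19, adjusted p = 0.00105) against WT with sucrose. The interaction of -1.64 (SE 0.27, adjusted p = 0.000517) was the lowest of the 61. The rise with FUS3 alone, 0.67 (SE 0.19, adjusted p = 0.0282), was lost without replicate 2 or 3 of WT without sucrose or replicate 1 or 2 of FUS3 without sucrose (at adjusted p 0.0606 to 0.101).

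The 2 genes between them went other ways. GSTU22 had mean signals of 1146 ± 53.6 (SD, n = 3) and 1281 ± 263 in WT without and with sucrose, and of 1597 ± 156 and 2180.0 ± 119.7 in FUS3. It rose with FUS3 in both media, by 0.47 (SE 0.13, adjusted p = 0.0213) and 0.78 (SE 0.13, adjusted p = 0.000212), and its interaction of 0.31 (SE 0.18, adjusted p = 0.251) was not called. The first of these calls was lost without replicate 1 or 2 of WT without sucrose or replicate 1 or 2 of FUS3 without sucrose (at adjusted p 0.0529 to 0.0911). Its rise with sucrose in FUS3, 0.45 (SE 0.13, adjusted p = 0.0118), was lost without replicate 3 of FUS3 without sucrose (at adjusted p 0.0536) or with array medians subtracted (adjusted p 0.0773). GSTU21 was called in no comparison, with signals from 33.2 to 70.2 over the 12 arrays.

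GSTU18 (chromosome 1, 3395551 to 3396953) and GSTL3 (chromosome 5, 632796 to 635240) were lowest where FUS3 and sucrose met. GSTU18 gave signals of 2723, 2526 and 2721 on the WT arrays without sucrose, 2467, 2584 and 2874 on those with it, 2034, 1952 and 1884 on the FUS3 arrays without sucrose and 688, 705 and 782 on those with it. The WT groups overlapped, FUS3 without sucrose lay below them on each array, and FUS3 with sucrose lay far below all. The change with FUS3 was -0.44 (SE 0.08, adjusted p = 0.00173) without sucrose and -1.84 (SE 0.08, adjusted p = 2.94e-10) with it, the largest decrease among the 61 members in that comparison. Sucrose gave -0.01 (SE 0.08, adjusted p = 0.95) in WT and -1.41 (SE 0.08, adjusted p = 6.96e-09) in FUS3, and the interaction was -1.40 (SE 0.11, adjusted p = 8.38e-07). The annotated locus of GSTU18 shares 71 bases with that of ERD9 and that of GSTL3 34 bases with CDL1, and which transcript the probes read was not tested.

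GSTL3 belongs to the lambda class, whose members act as thiol transferases rather than conjugating enzymes. Its signals were 7047, 6982 and 6699 on the WT arrays without sucrose, 6075, 7354 and 6339 on those with it, 5527, 5582 and 6580.5 on the FUS3 arrays without sucrose and 2732, 3280.0 and 2444 on those with it. FUS3 with sucrose lay far below the other arrays, and FUS3 without sucrose lay below WT without sucrose but overlapped WT with sucrose. FUS3 gave -0.23 (SE 0.11, adjusted p = 0.167) without sucrose, which was not called, and -1.23 (SE 0.11, adjusted p = 5.46e-07) with it, and the interaction was -0.99 (SE 0.15, adjusted p = 0.000255). GSTU16 had a like order, at 1650.0 ± 196 (SD, n = 3) and 1540.0 ± 198 in WT without and with sucrose, 1542 ± 84.1 in FUS3 without and 987 ± 91.5 in FUS3 with sucrose. It fell in FUS3 with sucrose against WT with sucrose, at -0.63 (SE 0.11, adjusted p = 0.000426). Its interaction of -0.54 (SE 0.16, adjusted p = 0.0236) was lost without replicate 1 of WT without sucrose, replicate 1 or 3 of WT with sucrose, replicate 1 of FUS3 without sucrose or replicate 2 of FUS3 with sucrose (at adjusted p 0.0502 to 0.0649). The arrays on which GSTU16, GSTU18 and GSTL3 were low are those with the green tissue sum of 58820 to 61950, whose part was not tested.

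GSTU25, known for its action on xenobiotics (chromosome 1, 5872024 to 5873124), and its neighbour GSTU26 rose in all 4 group comparisons. GSTU25 had signals of 717, 1021 and 1099.9 on the WT arrays without sucrose, 1745, 2041 and 1487 on those with it, 1232, 1847 and 1629 on the FUS3 arrays without sucrose and 3891, 4604 and 3490.3 on those with it. Every array of FUS3 with sucrose lay above the other 9, WT without sucrose lay below them, and the arrays with sucrose alone overlapped those with FUS3 alone. GSTU25 rose by 0.89 (SE 0.18, adjusted p = 0.00172) with sucrose in WT and by 1.35 (SE 0.18, adjusted p = 2.62e-05) in FUS3, and by 1.18 (SE 0.18, adjusted p = 9.93e-05) with FUS3 on sucrose. Without sucrose its rise with FUS3 was 0.72 (SE 0.18, adjusted p = 0.0117), and it was lost without replicate 1 of WT without sucrose or replicate 2 of FUS3 without sucrose (at adjusted p 0.0613 to 0.0618).

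GSTU26 signals were 547, 439 and 514 on the WT arrays without sucrose, 851, 719 and 659 on those with it, 846, 997 and 824 on the FUS3 arrays without sucrose and 1825, 1837 and 2001 on those with it. Again FUS3 with sucrose stood above all other arrays, and the lowest 3 arrays were those of WT without sucrose. FUS3 raised GSTU26 by 0.81 (SE 0.11, adjusted p = 0.000273) without sucrose and by 1.33 (SE 0.11, adjusted p = 4.65e-07) with sucrose. Its interaction, 0.52 (SE 0.16, adjusted p = 0.0311), was the 1 called GST interaction above 0, and it was lost without replicate 1 or 3 of WT without sucrose, replicate 2 or 3 of WT with sucrose, replicate 1 or 3 of FUS3 without sucrose or replicate 3 of FUS3 with sucrose (at adjusted p 0.0573 to 0.0804). The root hair sum had the same lowest and highest groups as GSTU25 and GSTU26, and its part was not tested.

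GSTU27 had the order of GSTU20 in part, with means of 1885 ± 29.2 (SD, n = 3) and 3271 ± 139.6 in WT without and with sucrose and 2481 ± 328 and 2805 ± 90.4 in FUS3. It rose by 0.79 (SE 0.08, adjusted p = 1.03e-05) with sucrose in WT and by 0.39 (SE 0.08, adjusted p = 0.00601) with FUS3 without sucrose, with an interaction of -0.61 (SE 0.12, adjusted p = 0.00186). Its FUS3 effect on sucrose, -0.22 (SE 0.08, adjusted p = 0.0516), was not called. That effect was called without replicate 1 or 2 of FUS3 without sucrose and under some other alternatives (adjusted p 0.0142 to 0.0475). GSTF4, a phi GST, rose by 0.58 (SE 0.13, adjusted p = 0.00358) with sucrose in WT and fell with FUS3 on sucrose, at -0.51 (SE 0.13, adjusted p = 0.0052), and its interaction was -0.69 (SE 0.18, adjusted p = 0.0124). GSTU28 rose with FUS3 without sucrose by 0.87 (SE 0.15, adjusted p = 0.00154), from 201 ± 30.5 to 381 ± 43.1, and was called in no other comparison. Its change with sucrose in WT, 0.43 (SE 0.15, adjusted p = 0.0586), was called under some alternatives (adjusted p 0.0196 to 0.0487). So was its interaction, -0.60 (SE 0.22, adjusted p = 0.0639), at adjusted p 0.0231 and 0.0377. GSTF13 rose with sucrose in WT by 1.25 (SE 0.21, adjusted p = 0.000507) and with FUS3 without sucrose by 0.73 (SE 0.21, adjusted p = 0.0273). The second GSTF13 call was lost without replicate 1 or 3 of WT without sucrose or replicate 2 or 3 of FUS3 without sucrose (at adjusted p 0.0593 to 0.118). The GSTF13 interaction, -0.80 (SE 0.30, adjusted p = 0.0665), and its sucrose effect in FUS3, 0.45 (SE 0.21, adjusted p = 0.108), were not called. Each was called when single arrays were left out (at adjusted p 0.0373 to 0.0418 and 0.0454 to 0.049). GSTU15 was called nowhere, at signals from 5.40 to 89.1.

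**Figure D2:**
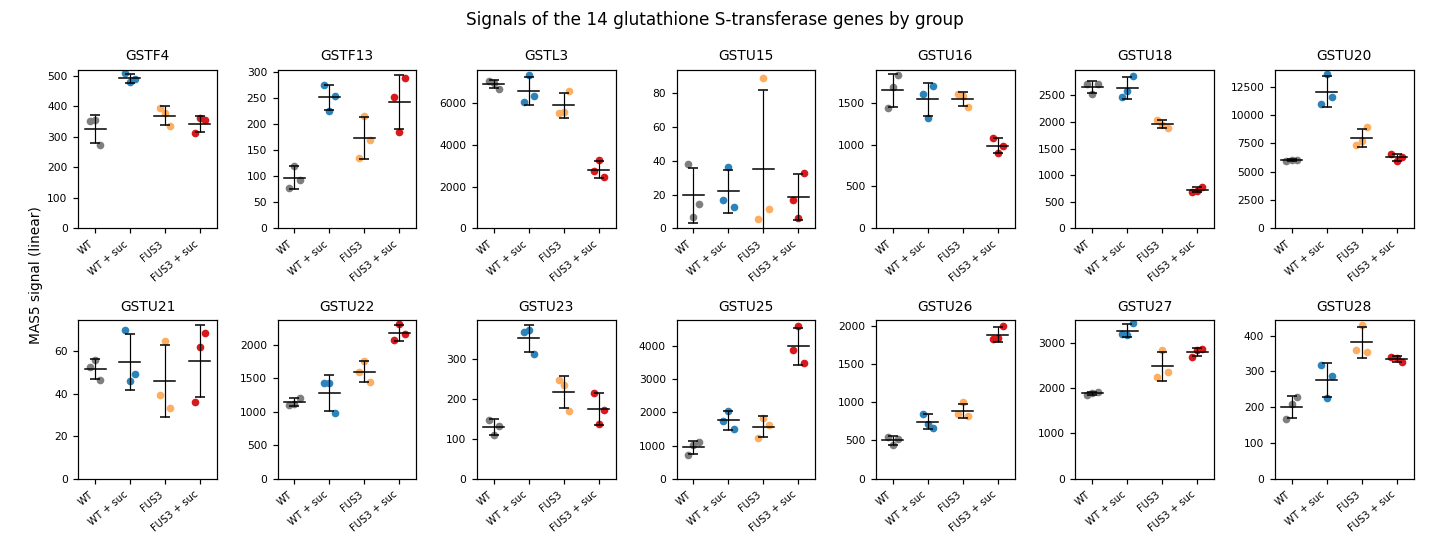
Linear MAS5 signals of the 14 GST genes in WT, WT with sucrose, FUS3 and FUS3 with sucrose, 3 arrays a group as points with the mean (black line) and SD (whiskers), each panel with its own scale from 0. The means of GSTU20, GSTU23, GSTU27, GSTF4 and GSTF13 peak in WT with sucrose, GSTL3, GSTU16 and GSTU18 are lowest in FUS3 with sucrose, and GSTU22, GSTU25 and GSTU26 are highest there.

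The UGTs are described by the molecules they act on. The 3 measured flavonoid UGTs of 8 listed belong to the UGT78 group. All 3 rose with sucrose in FUS3, beside 21.8% of all probe sets, and 2 of 3 rose with sucrose in WT, beside 15.9%. With FUS3 2 of 3 rose without sucrose, beside 9.50%, and 2 of 3 with it, beside 18.9%. The interaction was called for 1 of 3, beside 23.1% of all probe sets. UGT78D1, the flavonol 3-O-rhamnosyltransferase (chromosome 1, 10814612 to 10816615), had signals of 635, 649 and 671 on the WT arrays without sucrose, 1527, 1431 and 1599 on those with it, 972, 1096 and 1026 on the FUS3 arrays without sucrose and 1789, 1835 and 1644 on those with it. The 4 groups did not overlap and stood in the order WT, FUS3, WT with sucrose, FUS3 with sucrose. UGT78D1 rose with sucrose by 1.20 (SE 0.08, adjusted p = 1.6e-07) in WT and by 0.76 (SE 0.08, adjusted p = 2.98e-06) in FUS3, and with FUS3 without sucrose by 0.65 (SE 0.08, adjusted p = 8.09e-05). With sucrose the FUS3 effect was 0.21 (SE 0.08, adjusted p = 0.0531) and missed the threshold. It was called without replicate 1 of FUS3 without sucrose or replicate 3 of FUS3 with sucrose, with 64 added or without moderation (adjusted p 0.0297 to 0.0496). The interaction was -0.44 (SE 0.11, adjusted p = 0.0105).

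UGT78D2, the flavonoid 3-O-glucosyltransferase (chromosome 5, 5607788 to 5609589), rose in all 4 comparisons. Its means were 1230.0 ± 129.5 (SD, n = 3) and 1646 ± 46.0 in WT without and with sucrose, and 1895 ± 289 and 2430.0 ± 29.7 in FUS3. FUS3 added 0.61 (SE 0.10, adjusted p = 0.000887) without sucrose and 0.56 (SE 0.10, adjusted p = 0.000486) with it, and the interaction of -0.05 (SE 0.14, adjusted p = 0.84) was not called. The rises with sucrose, 0.42 (SE 0.10, adjusted p = 0.00637) in WT and 0.37 (SE 0.10, adjusted p = 0.00956) in FUS3, were not called after each array's median was subtracted (adjusted p 0.0576 and 0.103). Its neighbour UGT78D3, a flavonol arabinosyltransferase, had signals of 4.91, 49.2 and 3.52 on the WT arrays without sucrose, 5.73, 4.80 and 7.51 on those with it, 9.50, 8.01 and 6.02 on the FUS3 arrays without sucrose and 45.1, 24.8 and 31.5 on those with it. Apart from replicate 2 of WT without sucrose, the arrays of FUS3 with sucrose stood above all others. Its call for FUS3 on sucrose, 1.16 (SE 0.37, adjusted p = 0.0233), was lost without replicate 1 or 2 of WT with sucrose or replicate 1 or 3 of FUS3 with sucrose (at adjusted p 0.0507 to 0.0866). Its call for sucrose in FUS3, 1.04 (SE 0.37, adjusted p = 0.0377), was lost without any 1 array of FUS3 without sucrose or replicate 1 or 3 of FUS3 with sucrose (at adjusted p 0.0652 to 0.127).

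Of 10 phenylpropanoid UGTs listed 7 were measured, of which 4 rose and 1 fell with sucrose in WT, 4 rose and 1 fell with it in FUS3, and 2 rose and 2 fell with FUS3 in each medium. These 5, 5, 4 and 4 of 7 stand beside 26.0% of all probe sets called for sucrose in WT, 39.3% for sucrose in FUS3, and 16.5% and 38.5% for FUS3 without and with sucrose, and 2 of 7 were called for the interaction beside 23.1%. The UGT72E enzymes of this list glucosylate monolignols and related aldehydes. UGT72E2 (chromosome 5, 26625049 to 26626822) had signals of 543, 726 and 783 on the WT arrays without sucrose, 2530.4, 2982 and 2406 on those with it, 712, 1096 and 752 on the FUS3 arrays without sucrose and 1897, 1877 and 1989.8 on those with it. The arrays with sucrose lay above all those without, and WT with sucrose above FUS3 with sucrose. Its rise of 1.93 (SE 0.16, adjusted p = 9.11e-07) with sucrose in WT was the largest among the 61, and that in FUS3 was 1.18 (SE 0.16, adjusted p = 3e-05). The UGT72E2 interaction of -0.75 (SE 0.22, adjusted p = 0.0241) was lost without replicate 1 of WT without sucrose, replicate 2 of WT with sucrose or replicate 2 of FUS3 with sucrose (at adjusted p 0.0505 to 0.0616). Its fall in FUS3 against WT on sucrose, -0.45 (SE 0.16, adjusted p = 0.0351), was lost without replicate 1 or 2 of WT with sucrose or any 1 array of FUS3 with sucrose (at adjusted p 0.0567 to 0.13).

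UGT72E3, the second monolignol enzyme, had means of 75.5 ± 17.4 (SD, n = 3) and 198 ± 36.1 in WT without and with sucrose, and 170.0 ± 36.0 and 327 ± 59.2 in FUS3. It rose by 1.23 (SE 0.20, adjusted p = 0.000488) with sucrose in WT and by 1.02 (SE 0.20, adjusted p = 0.00354) with FUS3 without sucrose, and its interaction of -0.35 (SE 0.29, adjusted p = 0.448) was not called. The FUS3 effect with sucrose, 0.68 (SE 0.20, adjusted p = 0.0172), was lost without replicate 1 or 3 of WT with sucrose or replicate 2 of FUS3 with sucrose (at adjusted p 0.0585 to 0.084). UGT72E1, which acts on coniferyl aldehyde, went down instead, from 3096 ± 155 and 2778 ± 503 in WT to 2214 ± 275 and 1401 ± 185 in FUS3, without and with sucrose. It fell with FUS3 on sucrose, at -0.97 (SE 0.13, adjusted p = 4.94e-05), and with sucrose in FUS3, at -0.66 (SE 0.13, adjusted p = 0.00128). Its fall with FUS3 alone, -0.49 (SE 0.13, adjusted p = 0.0233), was lost without replicate 1 or 3 of WT without sucrose or replicate 1 or 2 of FUS3 without sucrose (at adjusted p 0.0586 to 0.0943).

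UGT71C1, which glucosylates phenolic compounds (chromosome 2, 12709721 to 12711725), showed the largest rise with FUS3 alone among the 61 genes. Its signals were 139, 239 and 197 on the WT arrays without sucrose, 562, 654 and 655 on those with it, 688, 986 and 723 on the FUS3 arrays without sucrose and 1515, 1379 and 1317 on those with it. The 4 groups did not overlap, with WT without sucrose lowest and FUS3 with sucrose highest. The rise was 1.98 (SE 0.17, adjusted p = 3.11e-06) with FUS3 without sucrose, 1.65 (SE 0.17, adjusted p = 7.99e-06) with sucrose in WT and 1.15 (SE 0.17, adjusted p = 9.1e-05) with FUS3 on sucrose. The interaction of -0.83 (SE 0.24, adjusted p = 0.022) was lost without replicate 2 of FUS3 without sucrose or replicate 3 of FUS3 with sucrose (at adjusted p 0.0541 to 0.0555). UGT71C2, its neighbour (chromosome 2, 12706627 to 12708367), was called in none of the comparisons, with signals from 147 to 293 over the 12 arrays.

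UGT84A1, UGT84A3 and UGT84A4, which form glucose esters of hydroxycinnamates, complete the measured part of that list. UGT84A4 rose with sucrose in WT by 0.77 (SE 0.15, adjusted p = 0.00143). In FUS3 its rise of 0.48 (SE 0.15, adjusted p = 0.0178) was lost without replicate 1 or 3 of FUS3 without sucrose or replicate 1 of FUS3 with sucrose (at adjusted p 0.0555 to 0.0693). That rise was also lost with quantile normalization or with array medians subtracted (adjusted p 0.0852 to 0.0887). UGT84A3 had means of 836 ± 34.5 (SD, n = 3) in WT and 531 ± 80.2 in FUS3 without sucrose, a change of -0.65 (SE 0.16, adjusted p = 0.0108). Its fall with sucrose in WT, -0.47 (SE 0.16, adjusted p = 0.0384), was lost without any 1 array of WT without sucrose, replicate 1 of WT with sucrose or replicate 3 of FUS3 with sucrose (at adjusted p 0.0507 to 0.161). UGT84A1 was called nowhere, with means from 55.4 ± 11.1 in WT without sucrose to 93.6 ± 25.2 in FUS3 with sucrose.

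UGT74B1 (chromosome 1, 8525334 to 8527087) places the glucose on the sulfur of the glucosinolate core and was the 1 measured member of 2 listed for that pathway. Its signals were 2321, 1637 and 1873 on the WT arrays without sucrose, 3267, 3714 and 3694 on those with it, 2239, 1920.5 and 2256 on the FUS3 arrays without sucrose and 2278, 2163 and 1982 on those with it. WT with sucrose stood above all other arrays, and the other 3 groups overlapped. UGT74B1 rose with sucrose by 0.88 (SE 0.11, adjusted p = 6.07e-05) in WT, and sucrose gave 0.00 (SE 0.11, adjusted p = 0.985) in FUS3. FUS3 on sucrose lay at -0.73 (SE 0.11, adjusted p = 0.00015) against WT, and the interaction was -0.88 (SE 0.16, adjusted p = 0.00119). UGT74B1 and GSTU20, the 2 members tied to glucosinolates, both had their highest means in WT with sucrose and called interactions below 0.

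Among 6 measured of 8 listed salicylate and defence UGTs, 3 rose and 1 fell with FUS3 without sucrose, 2 rose with FUS3 on sucrose, and 3 rose with sucrose in each line, with no interaction called by limma and 1 at an unadjusted p under 0.05. The background was 16.5% and 38.5% of all probe sets for FUS3 without and with sucrose, 26.0% and 39.3% for sucrose in WT and in FUS3, and 23.1% for the interaction, so that the 2 of 6 (33.3%) called for FUS3 on sucrose lay below it and the 3 of 6 for sucrose in FUS3 near it. UGT74F1, a salicylate glucosyltransferase, had signals of 20.9, 17.6 and 60.8 on the WT arrays without sucrose, 103, 147 and 125 on those with it, 113, 109.7 and 65.8 on the FUS3 arrays without sucrose and 192, 144 and 153 on those with it. WT without sucrose lay below all other arrays, and WT with sucrose overlapped both FUS3 groups. UGT74F1 rose by 1.61 (SE 0.30, adjusted p = 0.00104) with sucrose in WT and by 1.27 (SE 0.30, adjusted p = 0.00955) with FUS3 without sucrose. UGT76B1, which acts on salicylate and on isoleucic acid, had means of 421 ± 30.9 (SD, n = 3) and 729 ± 103 in WT and of 747 ± 174 and 1018 ± 116 in FUS3, without and with sucrose. It rose by 0.76 (SE 0.16, adjusted p = 0.00266) with sucrose in WT and by 0.78 (SE 0.16, adjusted p = 0.00416) with FUS3 without sucrose. Its rise with FUS3 on sucrose, 0.48 (SE 0.16, adjusted p = 0.0289), was lost without replicate 2 or 3 of WT with sucrose or replicate 1 or 3 of FUS3 with sucrose (at adjusted p 0.0578 to 0.119). Array medians subtracted, no moderation and no trend also lost it (adjusted p 0.052 to 0.0799). That with sucrose in FUS3, 0.46 (SE 0.16, adjusted p = 0.0334), was lost without replicate 1 of FUS3 without sucrose or replicate 1 or 3 of FUS3 with sucrose (at adjusted p 0.0713 to 0.156). The same 3 settings, quantile normalization and a fit to the compared arrays alone lost it too (adjusted p 0.0601 to 0.146).

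UGT73B4, a gene of the defence list, had signals of 143, 181 and 157 on the WT arrays without sucrose, 289.8, 439.6 and 181 on those with it, 267, 351 and 356 on the FUS3 arrays without sucrose and 861, 1124 and 817 on those with it. FUS3 with sucrose lay above all other arrays, and the highest array of WT without sucrose came close to the lowest of WT with sucrose. The changes were 1.64 (SE 0.24, adjusted p = 8.85e-05) with FUS3 on sucrose and 1.48 (SE 0.24, adjusted p = 0.000205) with sucrose in FUS3. The rise of UGT73B4 with FUS3 alone, 0.94 (SE 0.24, adjusted p = 0.0157), was lost without replicate 1 of WT without sucrose or replicate 2 or 3 of FUS3 without sucrose (at adjusted p 0.0533 to 0.0642). That with sucrose in WT, 0.78 (SE 0.24, adjusted p = 0.0281), was lost without replicate 1 or 3 of WT without sucrose or replicate 1 or 2 of WT with sucrose (at adjusted p 0.0658 to 0.123). Quantile normalization, subtraction of array medians, a fit to the compared arrays alone, no moderation and no trend each lost it too (adjusted p 0.0538 to 0.105). UGT73B5, tied to defence, has a locus that shares 1866 bases with that of UGT73B4, and which transcript each probe set read was not tested. It fell with FUS3 without sucrose, at -0.59 (SE 0.18, adjusted p = 0.0345), which was lost without replicate 1 or 2 of WT without sucrose or any 1 array of FUS3 without sucrose (at adjusted p 0.0578 to 0.139). UGT71C3, known from methyl salicylate, rose with sucrose in FUS3 by 0.51 (SE 0.19, adjusted p = 0.0424), lost without replicate 2 of WT without sucrose, replicate 3 of WT with sucrose, replicate 2 or 3 of FUS3 without sucrose or replicate 1 or 2 of FUS3 with sucrose (at adjusted p 0.0515 to 0.193). UGT76D1, which acts on dihydroxybenzoic acids, was called nowhere, with means from 74.6 ± 16.2 in FUS3 without sucrose to 121 ± 17.9 in WT with sucrose.

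Of 16 listed hormone UGTs 9 were measured. With FUS3, 1 rose without sucrose, beside 16.5% of all probe sets called, and 2 rose and 1 fell with sucrose, beside 38.5%. With sucrose in FUS3, 2 rose and 1 fell, beside 39.3%, and 1 of 9 interactions was called, beside 23.1%. For sucrose in WT limma called none of the 9, beside 26.0%, with 1 of them at an unadjusted p under 0.05, but UGT76C2 was called with quantile normalization (adjusted p 0.0434), with array medians subtracted (0.0215) and without replicate 2 of WT with sucrose (0.00678), and UGT74D1 without replicate 3 of that group (0.0142). UGT74D1, which acts on auxins, rose with FUS3 from 1522 ± 79.0 (SD, n = 3) to 2152 ± 83.6 without sucrose, by 0.50 (SE 0.12, adjusted p = 0.0139), and from 1702 ± 361 to 2282 ± 159.8 with sucrose, by 0.44 (SE 0.12, adjusted p = 0.0115). The first UGT74D1 call was lost without replicate 1 of WT without sucrose (at adjusted p 0.0618) and the second without replicate 2 of FUS3 with sucrose (at adjusted p 0.0505). Its locus shares 3089 bases with an annotated long non-coding RNA, and which of them was read was not tested. UGT71C5, which forms the glucose ester of abscisic acid, fell with FUS3 on sucrose from 1125 ± 225 to 729 ± 48.1, at -0.60 (SE 0.13, adjusted p = 0.0021), and without sucrose the value was -0.40 (SE 0.13, adjusted p = 0.0525), which was called under 7 alternatives (adjusted p 0.017 to 0.0485). UGT76C2, a cytokinin N-glucosyltransferase, fell with sucrose in FUS3 from 766 ± 40.1 to 485 ± 25.4, at -0.64 (SE 0.13, adjusted p = 0.000852), whereas its neighbour UGT76C1, with the same kind of activity, had 0.31 (SE 0.12, adjusted p = 0.0655), a value called with the low-signal filter (adjusted p 0.0433) or without replicate 3 of FUS3 without sucrose (adjusted p 0.0216).

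UGT73C1, on the hormone list for its action on cytokinins, had signals of 3.42, 12.4 and 11.1 on the WT arrays without sucrose, 4.90, 5.78 and 3.98 on those with it, 6.84, 5.01 and 7.91 on the FUS3 arrays without sucrose and 12.2, 107 and 52.3 on those with it. Replicates 2 and 3 of FUS3 with sucrose stood far above all others, and replicate 1 lay within the range of WT without sucrose. UGT73C1 rose with FUS3 on sucrose by 1.57 (SE 0.40, adjusted p = 0.00577) and with sucrose in FUS3 by 1.45 (SE 0.40, adjusted p = 0.00909). Its interaction of 1.69 (SE 0.56, adjusted p = 0.0419) was lost without replicate 2 or 3 of WT without sucrose, any 1 array of WT with sucrose, any 1 array of FUS3 without sucrose or replicate 2 or 3 of FUS3 with sucrose (at adjusted p 0.0633 to 0.0874). UGT71B8, from the abscisic acid part of the list, rose with sucrose in FUS3 by 1.11 (SE 0.37, adjusted p = 0.0281), lost without replicate 1 of FUS3 without sucrose or any 1 array of FUS3 with sucrose (at adjusted p 0.0511 to 0.13). UGT71B6, UGT84B1 and UGT84B2 were called nowhere, although UGT71B6 had the lowest fitted FUS3 effect without sucrose of the 61, at -0.88 (SE 0.38, adjusted p = 0.146). Of the 2 sterol UGTs listed UGT80B1 was measured and was called nowhere, with means from 443 ± 29.4 in FUS3 to 497 ± 20.7 in WT, both without sucrose.

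Some of the largest changes lay in UGTs of no list. UGT76E12 (chromosome 3, 17189264 to 17191167) had signals of 2.03, 25.6 and 8.94 on the WT arrays without sucrose, 18.2, 46.4 and 28.7 on those with it, 30.3, 16.5 and 3.58 on the FUS3 arrays without sucrose and 423, 572 and 284 on those with it. The first 3 groups overlapped at low signal, and FUS3 with sucrose stood above every other array. The rise was 3.22 (SE 0.38, adjusted p = 1.12e-05) with FUS3 on sucrose and 3.79 (SE 0.38, adjusted p = 2.1e-06) with sucrose in FUS3, the largest of the 61 in both comparisons, and the interaction was 3.0 (SE 0.54, adjusted p = 0.000965). With 1 or 64 added in place of 16 the interaction was 3.22 or 2.25 and still called. UGT76E11, its neighbour, had means of 259 ± 7.20 (SD, n = 3) and 240.3 ± 18.7 in WT and of 218 ± 61.9 and 304 ± 12.7 in FUS3. UGT76E11 rose with sucrose in FUS3 by 0.48 (SE 0.17, adjusted p = 0.0383), lost without replicate 1 or 3 of FUS3 without sucrose or any 1 array of FUS3 with sucrose (at adjusted p 0.0622 to 0.178). The loci of UGT76E11 and UGT76E12 share 1809 and 1904 bases with annotated long non-coding RNAs, and which transcript was read was not tested.

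UGT76E2 (chromosome 5, 24008865 to 24010688) rose with FUS3 in both media. Its signals were 68.7, 51.2 and 93.6 on the WT arrays without sucrose, 27.1, 63.5 and 38.8 on those with it, 140.1, 130.2 and 170.1 on the FUS3 arrays without sucrose and 211, 179.9 and 217 on those with it. All 6 FUS3 arrays lay above all 6 WT arrays. The rise was 1.93 (SE 0.24, adjusted p = 2.23e-05) with sucrose and 0.92 (SE 0.24, adjusted p = 0.0189) without, the second lost without replicate 1 or 2 of WT without sucrose or replicate 3 of FUS3 without sucrose (at adjusted p 0.0583 to 0.078). Its neighbour UGT76E1, which glucosylates a jasmonate derivative, was called nowhere, with signals from 1.71 to 10.6 over the 12 arrays.

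UGT88A1 (chromosome 3, 5618408 to 5620969) had signals of 7477, 7373 and 6709.9 on the WT arrays without sucrose, 7525, 7135 and 7354 on those with it, 7090.4, 6273 and 6719.8 on the FUS3 arrays without sucrose and 3628, 3274 and 3394 on those with it. FUS3 with sucrose lay far below the other 3 groups, which lay close together. UGT88A1 fell with FUS3 on sucrose, at -1.09 (SE 0.07, adjusted p = 2.55e-08), and with sucrose in FUS3, at -0.96 (SE 0.07, adjusted p = 1.03e-07), against -0.10 (SE 0.07, adjusted p = 0.386) for FUS3 alone and 0.03 (SE 0.07, adjusted p = 0.811) for sucrose alone. The interaction was -0.99 (SE 0.10, adjusted p = 7.43e-06). UGT72B3 had means of 410.5 ± 19.5 (SD, n = 3) and 585 ± 165 in WT and of 392 ± 77.4 and 229.9 ± 26.4 in FUS3, without and with sucrose. It fell with FUS3 on sucrose, at -1.26 (SE 0.19, adjusted p = 9.3e-05), and its interaction was -1.18 (SE 0.26, adjusted p = 0.00477). The low arrays of both genes are again those of the low green tissue sum.

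UGT73B1 was the UGT that fell most with sucrose in WT. Its signals were 1106, 1043 and 965 on the WT arrays without sucrose, 392, 432 and 334 on those with it, 831, 861 and 756 on the FUS3 arrays without sucrose and 543, 653 and 491 on those with it. The 4 groups did not overlap. Sucrose gave -1.40 (SE 0.12, adjusted p = 1.76e-06) in WT and -0.53 (SE 0.12, adjusted p = 0.00297) in FUS3, FUS3 gave 0.52 (SE 0.12, adjusted p = 0.00345) on sucrose, and the interaction was 0.86 (SE 0.17, adjusted p = 0.00217). Its locus shares 1015 bases with the annotated gene AT4G34139, and which transcript was read was not tested.

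UGT85A2, UGT85A3, UGT85A5 and UGT85A7 lie together on chromosome 1 (7890259 to 7902427), and all 4 rose with FUS3 on sucrose, beside 18.9% of all probe sets. UGT85A2 had means of 1152 ± 47.6 (SD, n = 3) and 1187 ± 182 in WT and of 1130.0 ± 144 and 1699 ± 79.1 in FUS3, and rose by 0.52 (SE 0.11, adjusted p = 0.00199). Its interaction of 0.56 (SE 0.16, adjusted p = 0.0211) was lost without replicate 1 of FUS3 without sucrose (at adjusted p 0.0506). UGT85A3 rose by 0.85 (SE 0.22, adjusted p = 0.00751). UGT85A5 rose by 0.55 (SE 0.19, adjusted p = 0.0297), lost without any 1 array of WT with sucrose or any 1 array of FUS3 with sucrose (at adjusted p 0.0585 to 0.0736). UGT85A7, with signals on sucrose from 14.8 to 40.8 in WT and 99.3 to 135 in FUS3, rose by 1.73 (SE 0.62, adjusted p = 0.0389), lost without replicate 1 or 2 of WT with sucrose or any 1 array of FUS3 with sucrose (at adjusted p 0.0651 to 0.115). UGT85A4, elsewhere on chromosome 1, fell with FUS3 from 520.2 ± 14.6 to 308 ± 5.84 without sucrose, at -0.73 (SE 0.12, adjusted p = 0.000756), and on sucrose, at -0.52 (SE 0.12, adjusted p = 0.00261). Its fall with sucrose in WT, -0.40 (SE 0.12, adjusted p = 0.0218), was lost without replicate 2 or 3 of WT without sucrose or replicate 3 of WT with sucrose (at adjusted p 0.0573 to 0.0957).

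UGT71B1 rose with sucrose in WT by 0.51 (SE 0.08, adjusted p = 0.000352) and had an interaction of -0.44 (SE 0.12, adjusted p = 0.0139). Its fall with FUS3 on sucrose, -0.24 (SE 0.08, adjusted p = 0.03), was lost without replicate 2 or 3 of WT with sucrose or replicate 1 or 3 of FUS3 with sucrose (at adjusted p 0.0566 to 0.125). UGT71C4 fell in all 4 comparisons, from 1372 ± 19.5 (SD, n = 3) in WT without sucrose to 913 ± 42.6 in FUS3 with sucrose. The smallest of these changes, -0.23 (SE 0.08, adjusted p = 0.0452) for sucrose in WT, was lost without any 1 array of WT without sucrose, replicate 2 or 3 of WT with sucrose, replicate 2 of FUS3 without sucrose or replicate 1 or 3 of FUS3 with sucrose (at adjusted p 0.0508 to 0.152). Its change with FUS3 alone, -0.29 (SE 0.08, adjusted p = 0.0238), was lost without any 1 array of WT without sucrose or replicate 1 of FUS3 without sucrose (at adjusted p 0.0601 to 0.0848). UGT73C2 rose with FUS3 on sucrose by 0.91 (SE 0.30, adjusted p = 0.0286), lost without replicate 2 or 3 of WT with sucrose or replicate 2 or 3 of FUS3 with sucrose (at adjusted p 0.0587 to 0.12). UGT71B5 rose with sucrose in FUS3 by 1.06 (SE 0.35, adjusted p = 0.0261), lost without replicate 1 or 3 of FUS3 without sucrose or replicate 2 or 3 of FUS3 with sucrose (at adjusted p 0.0537 to 0.101).

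**Figure D3:**
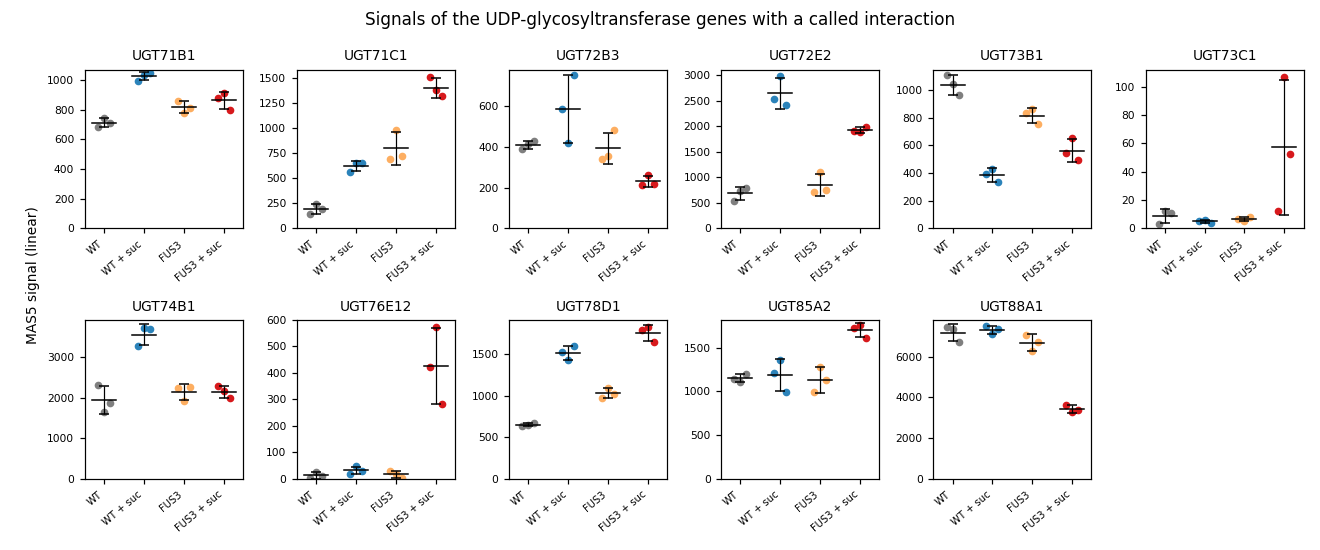
Linear MAS5 signals of the 11 UGT genes with a called interaction in the 4 groups, 3 arrays a group as points with the mean (black line) and SD (whiskers), each panel with its own scale from 0. UGT76E12 and UGT73C1 have their highest mean in FUS3 with sucrose, UGT88A1 and UGT72B3 are lowest there, UGT74B1 is highest in WT with sucrose and UGT73B1 is lowest there.

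**Figure D4:**
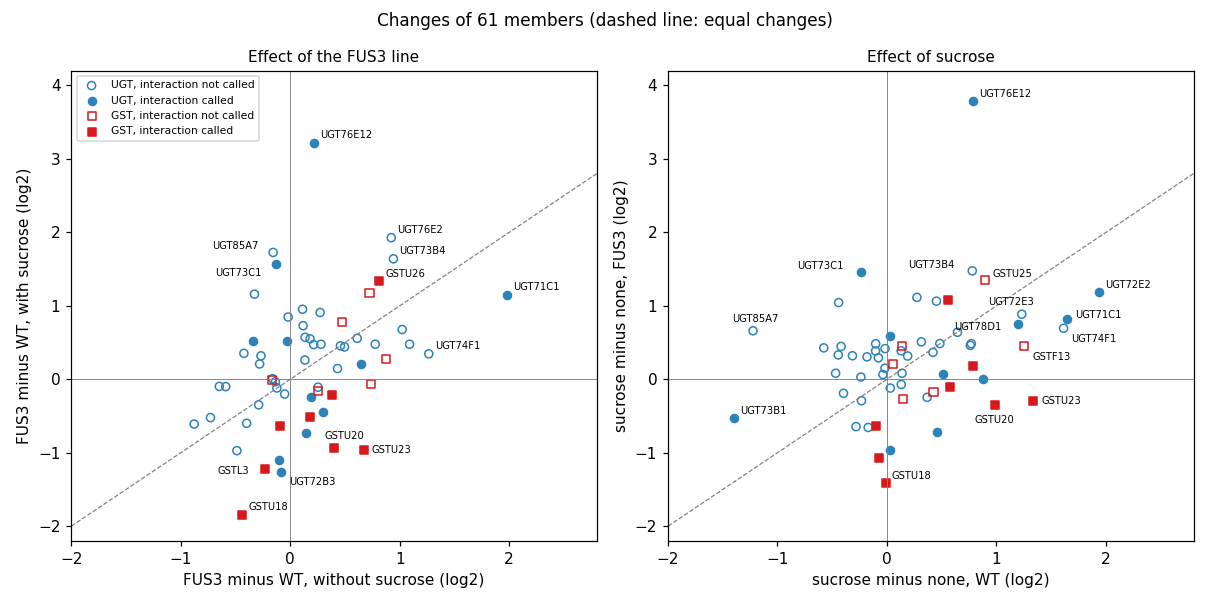
Log2 changes of the 61 genes, left for FUS3 against WT without sucrose (horizontal) and with sucrose (vertical), right for sucrose against none in WT (horizontal) and in FUS3 (vertical), with UGTs as blue circles and GSTs as red squares, filled where the interaction was called. The vertical distance from the dashed line is the interaction, 3.0 for UGT76E12 above it and -1.64, -1.40 and -1.34 for GSTU23, GSTU18 and GSTU20 below it.

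Across genes, the 2 FUS3 effects, which share no array, had a Pearson correlation of 0.39 over the 47 UGTs and 0.68 over the 14 GSTs, beside 0.55 over all probe sets. The effects of sucrose in WT and in FUS3 had 0.36 and 0.44, beside 0.32. By rank (Spearman) the 2 FUS3 effects had 0.41 over the UGTs and 0.67 over the GSTs, beside 0.28 over all probe sets. Those of sucrose had 0.38 and 0.39, beside 0.35. For the FUS3 effects the UGTs thus lay below all probe sets by Pearson correlation and above them by rank. Genes are not independent replicates, and these values describe the arrays only. By mean signal, 27 of 47 UGTs (57.4%) were highest in FUS3 with sucrose, beside 36.7% of all probe sets, and 20 (42.6%) were lowest in WT without sucrose, beside 30.9%. For the GSTs 4 of 14 were highest in FUS3 with sucrose and 5 in WT with sucrose, beside 21.9% of all probe sets in the latter, and 9 (64.3%) were lowest in WT without sucrose.

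**Figure D5:**
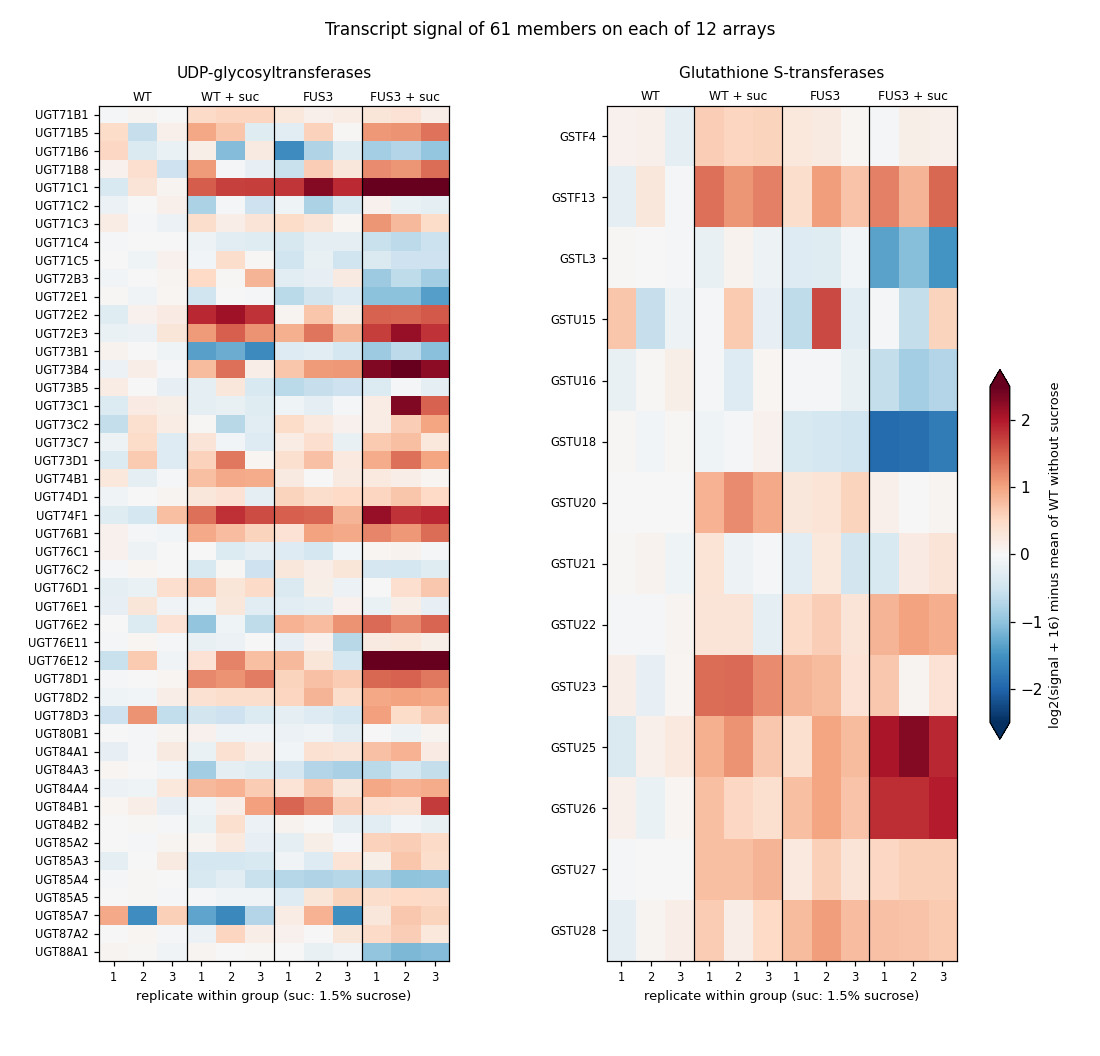
Each of the 47 UGT (left) and 14 GST (right) genes as a row and each of the 12 arrays as a column, in colour as log2(signal + 16) minus the gene's mean in WT without sucrose, red above and blue below, with colours ending at 2.5. UGT71C1 and UGT76E12 reach the end of the scale in FUS3 with sucrose, where GSTU18 and GSTL3 are blue, and rows of low signal such as UGT85A7 and GSTU15 vary within groups.

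Neighbouring members did not always share their calls. Taking loci at most 10000 bases apart together, 39 of the 61 genes lay in 16 clusters. In the cluster of GSTU20 to GSTU23, interactions ran from -1.64 in GSTU23 to 0.31 in GSTU22, while GSTU25 and GSTU26 rose together in all 4 comparisons. The loci of GSTF4, UGT71B6, UGT74F1, UGT76E1 and UGT85A4 share 1014, 1616, 356, 1896 and 1853 bases with another annotated gene, and which transcript was read was not tested there either. None of the 61 probe sets carries a suffix that marks probes shared between transcripts. In all, 35 UGTs and 12 GSTs were called in at least 1 of the 5 comparisons, 74.5% and 85.7% beside 56.9% of all probe sets, and 12 and 2 in none. The UGTs called in none were UGT71B6, UGT71C2, UGT73C7, UGT73D1, UGT76C1, UGT76D1, UGT76E1, UGT80B1, UGT84A1, UGT84B1, UGT84B2 and UGT87A2.

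Few listed genes of cosubstrate supply were measured in the sense given above. Of 16 listed loci of glutathione synthesis and use 2 were measured. GR1, a glutathione reductase gene, rose with sucrose in WT by 0.43 (SE 0.10, adjusted p = 0.00558) and with FUS3 without sucrose by 0.31 (SE 0.10, adjusted p = 0.0469). The second glutathione reductase gene, GR, fell in all 4 comparisons, from 5503 ± 226 (SD, n = 3) in WT without sucrose to 2862 ± 304 in FUS3 with sucrose. Of 15 loci of UDP-sugar supply 1 was measured, the UDP-sugar pyrophosphorylase gene USP, which rose with sucrose in WT by 0.43 (SE 0.12, adjusted p = 0.0173), fell with FUS3 on sucrose, at -0.43 (SE 0.12, adjusted p = 0.0115), and had an interaction of -0.55 (SE 0.17, adjusted p = 0.0327). None of 6 listed ABCC transporters, which carry conjugates into the vacuole, was analysed here.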

How the data were processed

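Total RNA of 12 samples was hybridised to ATH1 arrays. The deposited values are linear signal intensities made by the authors with Affymetrix Expression Console and its MAS5 algorithm, per the submitters' processing notes, with versions not given in the sources used here. No intensities of single probes and no detection calls were used. Of 22810 probe sets 64 controls were left out. Signals were taken as log2(signal + 16), and limma 3.58.1 in R 4.3.3 was fitted to all 12 arrays with 1 mean per group, variance moderation with a trend and Benjamini-Hochberg adjustment over 22746 probe sets. The study's design text names a two-way analysis of variance, which was run as an alternative. The method was tested on simulated data. Figures were drawn with matplotlib 3.10.9 under Python 3.11.15.

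Genes are named through the platform's annotation, and positions are those of RefSeq on TAIR10.1. The members and the role lists were chosen with earlier results of these data known. Genes given values were the 4 largest called increases and decreases per family and comparison and the measured members of the role lists, with the remaining genes whose calls hinged on 1 array. Alternatives were the amount added before the log, quantile normalization, subtraction of array medians, a filter on low signals, fits to the compared arrays alone, the replicate number as a block, no trend, no moderation, a minimum of 2-fold and the omission of each array in turn. The replicate numbers were not taken to pair samples. Arrays of the same number had residual correlations between -0.00729 and 0.111, but 10 of 12 arrays correlated best with an array of their own number. Counts with the number as a block are given below. No 2 arrays held identical values. The number of arrays, 3 per group, limits the precision, and the labels do not say whether the replicates came from separate sowings. The p-values thus set group differences against a moderated estimate of the spread within groups of these samples only.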

Additional observations from a re-analysis of the deposited data

Results flagged for a closer look

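For 19 of the 61 genes the effect of FUS3 differed between media with and without sucrose by the interaction test in limma at adjusted p under 0.05, among 23.1% of all probe sets. The values are FUS3 effects with sucrose minus those without, on the log2 scale. Among the GSTs the interaction was -1.64 for GSTU23, -1.40 for GSTU18, -1.34 for GSTU20, -0.99 for GSTL3, -0.69 for GSTF4, -0.61 for GSTU27 and -0.54 for GSTU16, and 0.52 for GSTU26. Among the UGTs it was -1.18 for UGT72B3, -0.99 for UGT88A1, -0.88 for UGT74B1, -0.83 for UGT71C1, -0.75 for UGT72E2, and -0.44 for both UGT71B1 and UGT78D1. It was 3.0 for UGT76E12, 1.69 for UGT73C1, 0.86 for UGT73B1 and 0.56 for UGT85A2. Those of GSTU16, GSTU26, UGT71C1, UGT72E2, UGT73C1 and UGT85A2 were lost without at least 1 array.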

How the results depend on the processing

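No member's called change reversed under any alternative run. Of 127 called changes among 305 member results, 88 stood under all alternatives that tested them and 39 did not, 37 of these without at least 1 array. The minimum of 2-fold is not counted among these alternatives. Genes that the low-signal filter left out are not counted as lost by it. Of the uncalled ones 40 were called under some alternative. The two-way analysis of variance without moderation lost 28 of the called changes. Subtraction of array medians and the fit without a trend each lost 13, quantile normalization 10 and fits to the compared arrays alone 9. Most of these losses are not listed gene by gene above. In the order FUS3 without sucrose, FUS3 with sucrose, sucrose in WT, sucrose in FUS3 and interaction, leaving out each array in turn gave 2418 to 4018, 7701 to 8863, 4540 to 6016, 7796 to 9133 and 4474 to 5009 probe sets called, 8 to 15, 19 to 27, 11 to 17, 16 to 23 and 9 to 14 UGTs, and 5 to 9, 9 to 10, 7 to 8, 6 to 9 and 6 to 9 GSTs. A minimum of 2-fold, which by construction removes small changes, gave 672, 2342, 1247, 2352 and 1959 probe sets, 3, 9, 6, 7 and 3 UGTs and 0, 4, 2, 4 and 3 GSTs. With the low-signal filter, which tests fewer genes, 16 UGTs were called for FUS3 with sucrose, 7 higher and 9 lower in place of 16 and 9, and for FUS3 without sucrose the split was 7 and 7 in place of 9 and 5. Without moderation 5 GSTs were called for FUS3 without sucrose and 7 UGTs for the interaction, and the cause was not tested. With the replicate number as a block the counts were 15, 25, 14, 23 and 11 UGTs and 9, 10, 7, 7 and 8 GSTs, beside 14, 25, 15, 22 and 11 and 9, 9, 7, 7 and 8 without it, and 10 of 12 arrays correlated best with their own number, a hint from the data and not the design. Every member has 1 probe set, so the choice of the probe set with the lowest mean gave no value, and a fit to the compared arrays alone gives no interaction. Low-signal genes such as UGT76E12, UGT73C1 and UGT78D3 have fold changes that depend on the amount added.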
